A study of Homo sapiens with 6 samples.

Results

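The integrin and laminin subunit genes were taken from the deposited count table as the protein-coding rows whose symbols name an integrin alpha subunit, an integrin beta subunit or a laminin alpha, beta or gamma chain. The rule found 38 of the 60623 genes in the table, of which 26 encode integrin subunits and 12 encode laminin chains. The RNA came from PLC/PRF/5, an established cell line of human hepatocellular carcinoma, transduced with lentivirus. The labels assign 3 libraries to cells given a ZFP64-overexpression vector, labelled ZFP64-OE, and 3 to cells given a control vector, labelled control. All 6 came from the same line grown in the same medium with serum, and the labels do not say whether each arm was a clone or a pool or whether the replicates were separate cultures, so each p-value reflects only the spread among these samples, which may be technical. The study thereby asks what raised ZFP64, a zinc finger transcription factor, does to the transcripts of liver tumour cells.

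Integrins are cell surface receptors made of an alpha and a beta subunit that bind matrix proteins or proteins of other cells and connect them to the actin cytoskeleton. The alpha subunit largely sets which ligand is bound, and ITGB1 is the beta partner of most alpha subunits. Laminins are secreted trimers of an alpha, a beta and a gamma chain that form the sheet of the basement membrane, and integrins are among their main receptors. In the healthy liver the sinusoids lack a continuous basement membrane, and laminin is known to be deposited in fibrosis and in hepatocellular carcinoma.

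Library totals ranged from 35109227 to 39739674 counts in ZFP64-OE-labelled libraries and from 26468949 to 37466920 in control-labelled libraries. The level of ZFP64 contradicted the labels. The gene had 1314, 1385 and 1112 counts in ZFP64-OE-labelled libraries, against 3620, 6157 and 4552 in control-labelled libraries, 4.31-fold lower (log2 fold change -2.11, edgeR adjusted p = 2.31e-12). Every direction given here is therefore that of ZFP64-OE-labelled libraries relative to control-labelled libraries, whatever their true identity. Across the table, 19173 genes passed the filter on low counts and 1114 of them, 5.81%, were called at a 0.05 threshold on the adjusted p (edgeR, quasi-likelihood), 342 higher (1.78%) and 772 lower (4.03%). That number was 673 without ZFP64-OE-labelled replicate 1, 735 without ZFP64-OE-labelled replicate 2 and 587 without control-labelled replicate 2. Liver markers were abundant, led by APOB at 763 to 1070 FPKM in ZFP64-OE-labelled libraries and 500 to 702 FPKM in control-labelled libraries, and SERPINA1 at 485 to 571 FPKM in ZFP64-OE-labelled libraries and 787 to 1010 FPKM in control-labelled libraries. TTR, another liver marker, had 4 counts over the ZFP64-OE-labelled libraries and 8 over the control-labelled ones. FPKM, used below to compare levels between genes, are the authors' fragments per kilobase of gene, scaled to the library total.

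4 genes were called lower in ZFP64-OE-labelled libraries, the laminin genes LAMA3, LAMB1 and LAMB3 and the integrin gene ITGA11, and none was called higher. Of the 38 genes, 25 passed the filter and 13 did not. Among the 25, 4 were called lower, 0 higher and 21 did not pass, beside 5.81% of all genes tested that were called. By family, 1 of 19 tested integrin subunits and 3 of 6 tested laminin chains were called. The median log2 fold change of the 25 was -0.122, beside -0.0166 for all genes tested. The filter depends on level, so these counts describe the expressed members only.

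**Figure D1:**
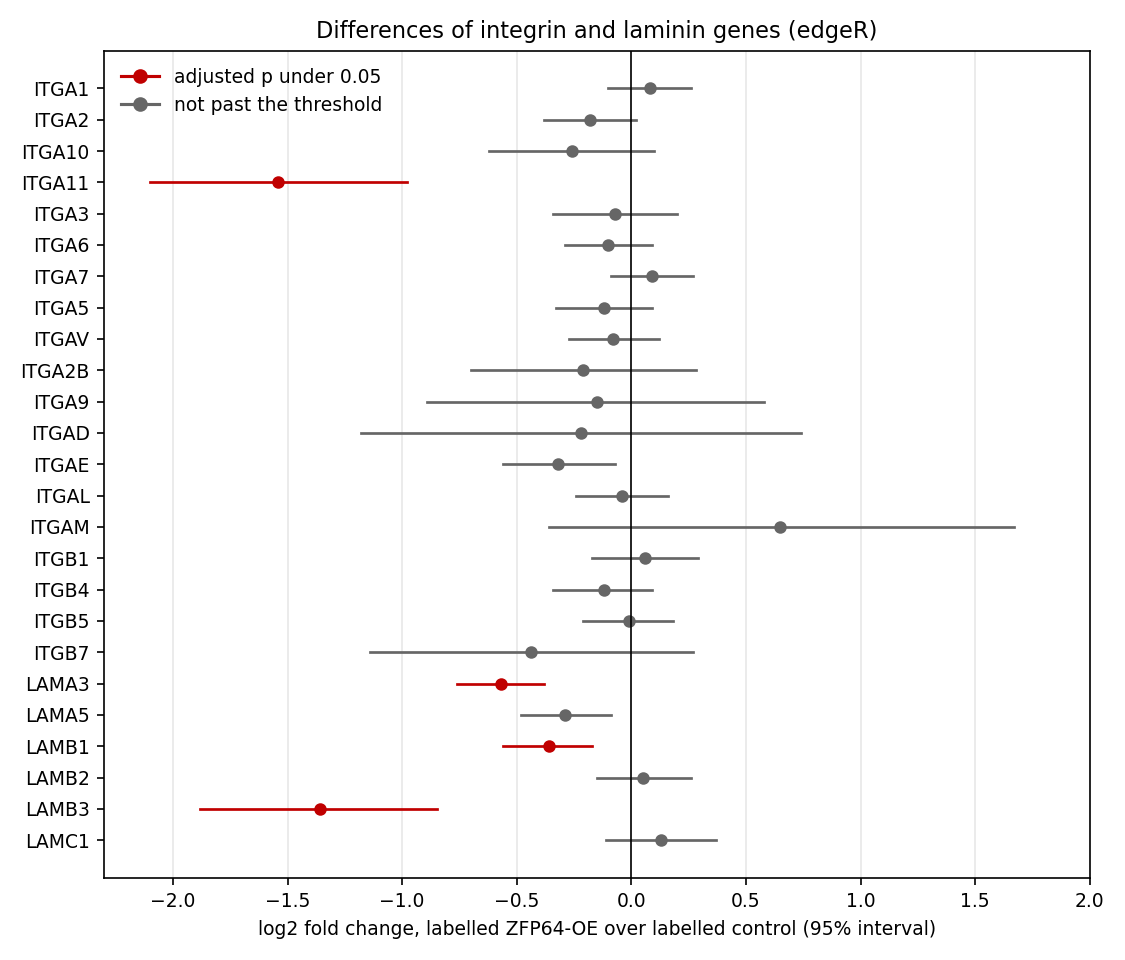
Log2 fold change (x axis, labelled ZFP64-OE over labelled control) with its 95% interval for each of the 25 genes tested. LAMA3, LAMB1, LAMB3 and ITGA11, drawn in red, lie below 0 and passed the threshold, while the well expressed integrins cluster near 0.

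The promoters of the 4 called genes are shown as a description. The genes were chosen by their calls in these data, and whether they share elements was not tested. The windows are those of RefSeq on GRCh38.p14, from 250 bases before to 50 after an annotated start, written 5′ to 3′ on the strand of the gene. Capitals mark matches, on either strand, to TGANTCA, the element bound by AP-1 factors, and to GGGCGG, the GC box bound by Sp1. No base was shared between matches of the AP-1 element and of the GC box in these windows. LAMA3 is shown from chr18:23872770-23873069 on the plus strand and lies inside the gene's span. LAMB3 has 3 annotated starts, of which the first (chr1:209652376-209652675, minus strand) and the last (chr1:209651325-209651624, minus strand) are shown. LAMB1 is from chr7:108003112-108003411 on the minus strand and ITGA11 from chr15:68432114-68432413 on the minus strand.
LAMA3: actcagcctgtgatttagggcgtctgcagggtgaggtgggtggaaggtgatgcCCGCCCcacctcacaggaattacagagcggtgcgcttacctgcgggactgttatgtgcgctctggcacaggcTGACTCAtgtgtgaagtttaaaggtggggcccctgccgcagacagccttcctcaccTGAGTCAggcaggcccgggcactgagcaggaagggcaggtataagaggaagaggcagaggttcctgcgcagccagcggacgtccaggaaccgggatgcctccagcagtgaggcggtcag
LAMB3, first start: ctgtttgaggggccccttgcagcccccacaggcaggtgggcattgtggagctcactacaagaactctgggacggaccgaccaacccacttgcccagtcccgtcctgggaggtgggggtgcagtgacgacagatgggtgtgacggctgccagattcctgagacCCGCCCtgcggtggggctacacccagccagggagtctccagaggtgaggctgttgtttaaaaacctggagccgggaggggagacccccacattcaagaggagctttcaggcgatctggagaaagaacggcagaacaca
LAMB3, last start: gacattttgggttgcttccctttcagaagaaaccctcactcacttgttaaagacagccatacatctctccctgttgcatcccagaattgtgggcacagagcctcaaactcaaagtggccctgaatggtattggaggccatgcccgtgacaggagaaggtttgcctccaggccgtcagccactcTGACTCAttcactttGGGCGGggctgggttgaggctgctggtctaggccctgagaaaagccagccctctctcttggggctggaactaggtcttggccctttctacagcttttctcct
LAMB1: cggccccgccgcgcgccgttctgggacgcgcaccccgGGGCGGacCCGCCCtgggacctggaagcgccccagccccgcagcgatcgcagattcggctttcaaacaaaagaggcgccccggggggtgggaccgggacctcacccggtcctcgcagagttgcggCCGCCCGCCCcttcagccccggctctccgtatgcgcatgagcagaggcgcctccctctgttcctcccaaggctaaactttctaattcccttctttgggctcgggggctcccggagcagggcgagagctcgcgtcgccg
ITGA11: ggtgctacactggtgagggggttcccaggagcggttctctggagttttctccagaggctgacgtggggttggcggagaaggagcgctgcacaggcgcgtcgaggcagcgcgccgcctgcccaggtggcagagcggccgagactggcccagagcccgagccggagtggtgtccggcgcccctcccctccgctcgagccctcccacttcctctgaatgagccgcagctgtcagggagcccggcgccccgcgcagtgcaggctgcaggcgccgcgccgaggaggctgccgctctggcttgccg
The LAMA3 window held the AP-1 letters at positions -125 and -69 from the start, and the window at the last LAMB3 start held them at -67. Neither the LAMB1 nor the ITGA11 window held them, while LAMB1 held 4 GC box matches, a pair of which overlapped each other, and ITGA11 held neither motif. Of all 35116 promoter windows of this length, 7.71% held the AP-1 letters and 45.0% the GC box. Windows were found for 26 of the 38 genes, 33 windows in all, of which 3 held the AP-1 letters (those of LAMA3, the last LAMB3 start and ITGA5) and 19 the GC box. A match describes letters only, and the deposited files do not tell which start was used.

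LAMA3 encodes the laminin alpha chain of epithelial basement membranes, which joins with the LAMB3 chain in the laminin of epidermal anchoring. LAMA3 (ENSG00000053747, chromosome 18, 23689443 to 23956222 on the plus strand of GRCh38) had 482, 541 and 470 counts in ZFP64-OE-labelled libraries, against 489, 754 and 684 in control-labelled libraries. Its FPKM values were 0.857, 0.928 and 0.912 in ZFP64-OE-labelled libraries and 1.26, 1.37 and 1.48 in control-labelled libraries. The groups did not overlap, and within each the libraries lay close together. In CPM, which are counts scaled to the library size with TMM factors, LAMA3 averaged 13.4 ± 0.535 in ZFP64-OE-labelled libraries and 19.9 ± 0.816 in control-labelled libraries (SD, n = 3 each). This was 1.49-fold lower, with a log2 fold change of -0.57 (standard error 0.0915, edgeR adjusted p = 0.000346). Leaving out any 1 library kept the log2 fold change between -0.60 and -0.53 and the adjusted p at or below 0.00231.

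LAMB3, the beta chain that pairs with LAMA3, was lower by a larger factor and at a lower level. LAMB3 (ENSG00000196878, chromosome 1, 209614870 to 209652466 on the minus strand) had 24, 36 and 34 counts in ZFP64-OE-labelled libraries, against 70, 84 and 54 in control-labelled libraries. The 3 ZFP64-OE-labelled libraries were all below every control-labelled one. It averaged 0.843 ± 0.177 CPM in ZFP64-OE-labelled libraries and 2.19 ± 0.554 CPM in control-labelled libraries (SD, n = 3 each), 2.57-fold lower (log2 fold change -1.36, standard error 0.247, edgeR adjusted p = 0.00132). The highest adjusted p without any 1 library was 0.00825.

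LAMB1 encodes the beta chain found in laminins of many tissues. LAMB1 (ENSG00000091136, chromosome 7, 107923799 to 108003255 on the minus strand) had 9.59, 10.1 and 8.61 FPKM in ZFP64-OE-labelled libraries, against 13.4, 11.9 and 11.9 FPKM in control-labelled libraries. The groups did not overlap, and ZFP64-OE-labelled replicate 3 was the lowest and control-labelled replicate 1 the highest. LAMB1 averaged 77.1 ± 7.20 CPM in ZFP64-OE-labelled libraries and 99.3 ± 11.5 CPM in control-labelled libraries (SD, n = 3 each), 1.29-fold lower (log2 fold change -0.36, standard error 0.0919, edgeR adjusted p = 0.0208). The call was lost without ZFP64-OE-labelled replicate 3 (log2 fold change -0.28, adjusted p = 0.0734) or control-labelled replicate 1 (-0.26, adjusted p = 0.0713). An antisense transcript covers 2.72% of the exonic bases of LAMB1 and held 142 counts over the 6 libraries, against 18123 for LAMB1, and the opposite-strand gene DLD covers 0.86% and held 50407 counts in all. How many of the counts in these overlaps belong to LAMB1 was not tested.

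The other expressed laminin chains did not pass the test. LAMA5, the alpha chain of most adult basement membranes, had 5.73, 6.14 and 4.95 FPKM in ZFP64-OE-labelled libraries, against 7.37, 6.59 and 7.08 FPKM in control-labelled libraries. Its groups did not overlap either, with a log2 fold change of -0.29 (standard error 0.0930, 95% interval -0.48 to -0.09, edgeR adjusted p = 0.0774). LAMA5 passed in edgeR with no filter on low counts (adjusted p = 0.0329) or with the replicate number as a block (0.0042). It did not pass with DESeq2 (adjusted p = 0.13) or when any 1 library was left out (edgeR adjusted p 0.0595 to 0.25). The opposite-strand gene ADRM1 covers 1.71% of the exonic bases of LAMA5 and held 14201 counts in all, against 18605 for LAMA5. LAMB2, the most abundant of the beta chains here, had 23.6, 27.8 and 22.6 FPKM in ZFP64-OE-labelled libraries and 25.5, 24.8 and 22.7 FPKM in control-labelled libraries. Its groups overlapped, and the log2 fold change was 0.05 (95% interval -0.15 to 0.26, adjusted p = 0.828). LAMC1, the gamma chain shared by most laminins, had 49.4, 51.7 and 42.9 FPKM in ZFP64-OE-labelled libraries and 51.1, 41.3 and 41.8 FPKM in control-labelled libraries. The interval of its log2 fold change, 0.13, ran from -0.11 to 0.37 (adjusted p = 0.587).

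**Figure D2:**
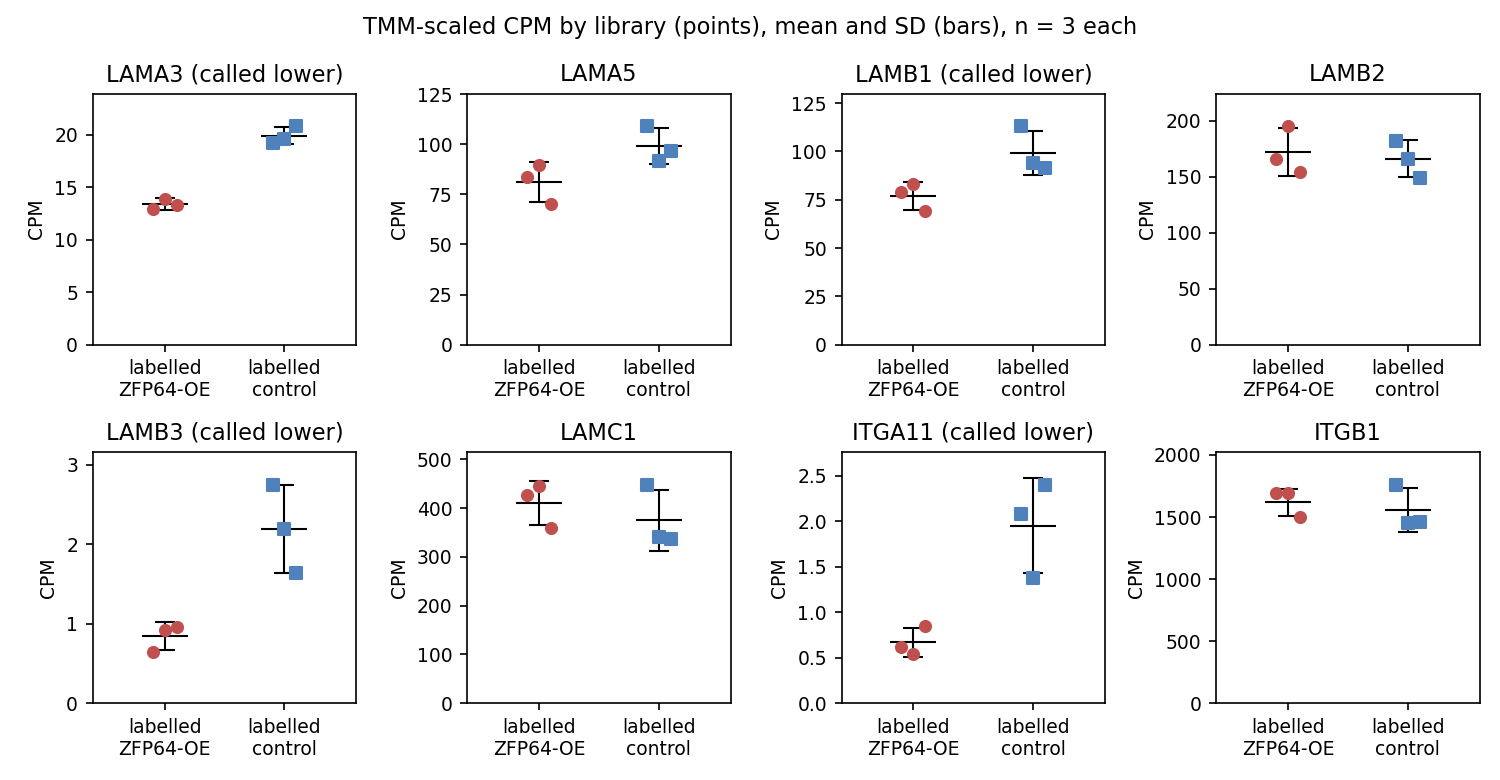
TMM-scaled CPM (y axis, from 0) of the 6 tested laminin chains, ITGA11 and ITGB1 in each library, with the mean and SD of 3 libraries. The points of the 2 arms do not overlap for LAMA3, LAMB1, LAMB3, ITGA11 and LAMA5, and overlap for LAMB2, LAMC1 and ITGB1.

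The make-up of the laminin chains was described by the share of each gene in the summed FPKM of its class. LAMA5 held 84.3% to 86.8% of the summed alpha chain FPKM in ZFP64-OE-labelled libraries and 82.7% to 85.3% in control-labelled libraries, with nearly all of the rest from LAMA3. Among beta chains LAMB2 was the larger, with 71.9% ± 1.12 of the summed FPKM in ZFP64-OE-labelled libraries and 65.4% ± 1.11 in control-labelled libraries (SD, n = 3 each). The LAMB1 share was 28.8%, 26.4% and 27.4% in ZFP64-OE-labelled libraries, against 34.0%, 32.0% and 34.0% in control-labelled libraries. The beta chain shares did not overlap between the arms, whereas the LAMA3 share of alpha chains did, at 13.0% to 15.5% in ZFP64-OE-labelled libraries and 14.6% to 17.3% in control-labelled libraries. With 3 libraries against 3, an exact permutation test cannot go below p = 0.10, so these shares are given without one. The chains LAMA1, LAMA2, LAMA4, LAMB4 and LAMC3 had between 0 and 7 counts in every library.

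**Figure D3:**
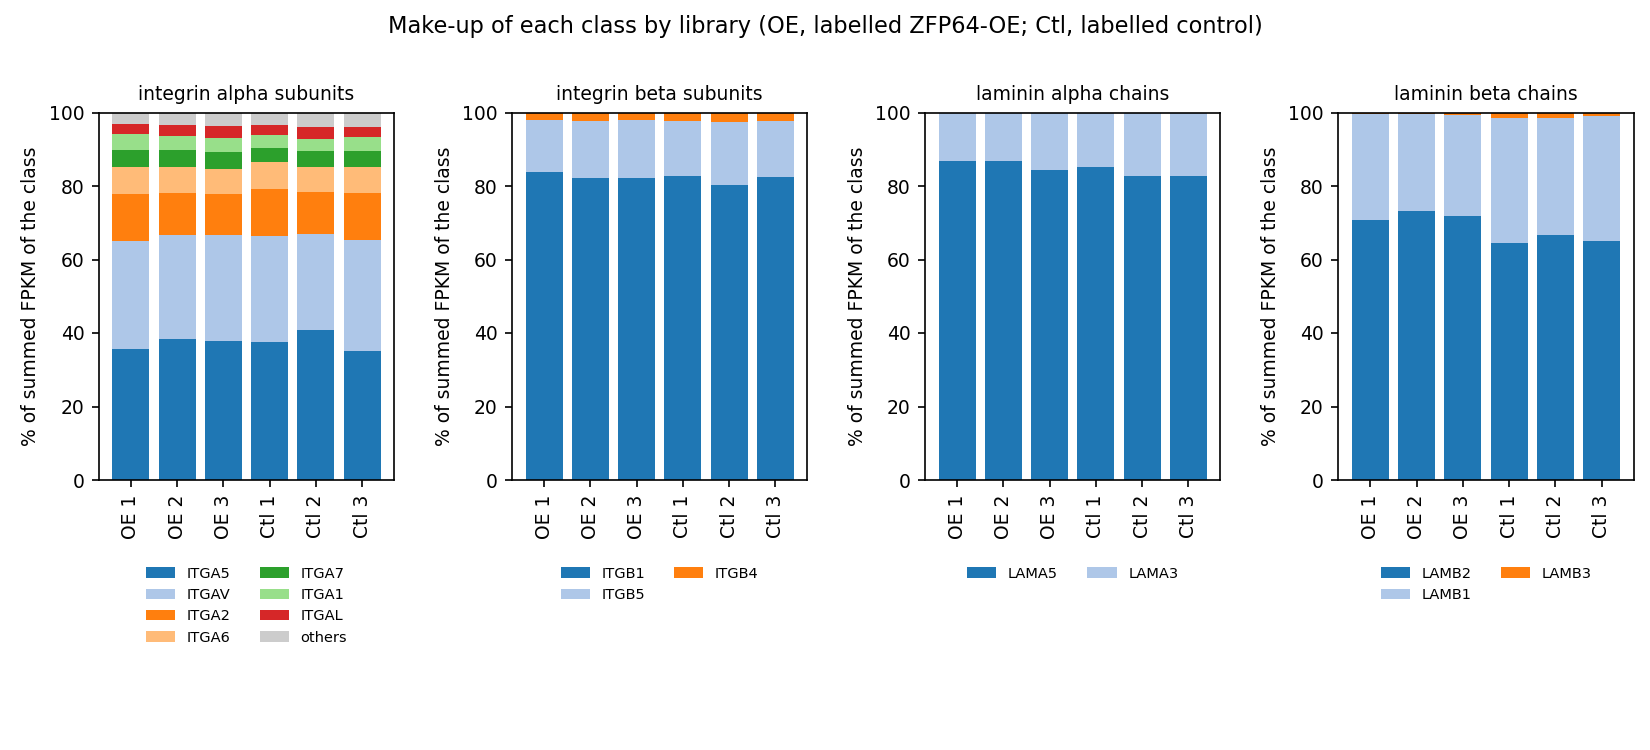
Share of each gene (y axis, percent) in the summed FPKM of its class, for each library. ITGA5 and ITGAV lead the alpha subunits, ITGB1 holds 80.3% to 83.9% of the beta subunits, LAMA5 leads the laminin alpha chains, and the LAMB1 part of the laminin beta chains is smaller in ZFP64-OE-labelled libraries.

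Integrin subunits were expressed over a wide range. ITGB1 was the most abundant of all 38 genes, and 12 integrin subunits had a mean above 1 FPKM. For these 12, the 95% intervals of the log2 fold change all lay within 0.56 of 0. None of them passed the test. ITGB1 had 275, 274 and 251 FPKM in ZFP64-OE-labelled libraries, against 282, 246 and 255 FPKM in control-labelled libraries. The arms overlapped (log2 fold change 0.06, 95% interval -0.17 to 0.29, edgeR adjusted p = 0.827). ITGB1 held 82.8% ± 0.922 of the summed beta subunit FPKM in ZFP64-OE-labelled libraries and 81.9% ± 1.35 in control-labelled libraries (SD, n = 3 each).

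**Figure D4:**
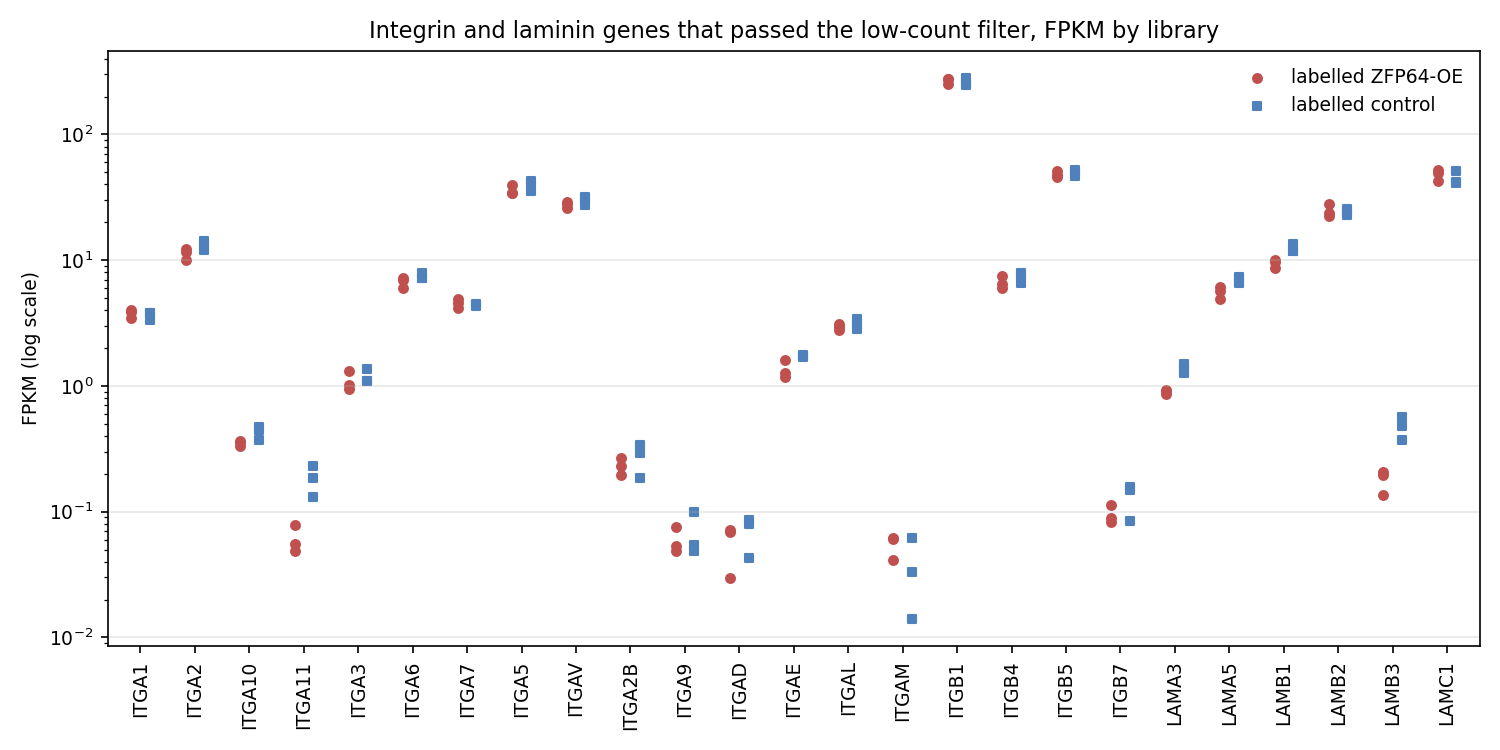
FPKM (y axis, log scale) of the 25 tested genes in each library, with ZFP64-OE-labelled libraries left of control-labelled libraries. Levels span from below 0.1 FPKM for ITGAM to above 246 FPKM for ITGB1, and within most genes the arms overlap.

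ITGB5, which pairs with ITGAV to bind vitronectin, was the next beta subunit. Its levels were 46.1, 51.4 and 47.6 FPKM in ZFP64-OE-labelled libraries and 50.4, 52.4 and 47.1 FPKM in control-labelled libraries, and its log2 fold change was -0.01 (95% interval -0.21 to 0.18). ITGB4, whose partner is ITGA6 and which anchors epithelial cells in hemidesmosomes, averaged 6.64 ± 0.782 FPKM in ZFP64-OE-labelled libraries and 7.40 ± 0.676 FPKM in control-labelled libraries (SD, n = 3 each; log2 fold change -0.12, 95% interval -0.34 to 0.09). ITGB7, the lymphocyte partner of ITGA4 and ITGAE, had 10 to 26 counts a library, and 42.1% of its exonic bases are overlapped by ZNF740 on the opposite strand, so its value is uncertain. ITGB2, ITGB3, ITGB6 and ITGB8 did not pass the filter, with at most 7 counts in any library. ITGB6 had 0 counts in all 3 ZFP64-OE-labelled libraries and 3, 4 and 0 in control-labelled libraries, too few for a fold.

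Among alpha subunits that recognise the RGD motif of fibronectin and vitronectin, ITGA5, the fibronectin receptor subunit, was the most abundant. ITGA5 had 34.0, 39.6 and 34.0 FPKM in ZFP64-OE-labelled libraries, against 41.4, 42.7 and 35.4 FPKM in control-labelled libraries. ITGAV, which pairs with several beta subunits, had 28.2, 29.2 and 26.0 FPKM in ZFP64-OE-labelled libraries and 32.0, 27.4 and 30.6 FPKM in control-labelled libraries. Both overlapped between the arms, with log2 fold changes of -0.12 for ITGA5 (95% interval -0.33 to 0.09) and -0.08 for ITGAV (-0.27 to 0.12). ITGA2B, the platelet subunit, averaged 0.231 ± 0.0341 FPKM in ZFP64-OE-labelled libraries and 0.271 ± 0.0776 FPKM in control-labelled libraries (SD, n = 3 each). ITGA8 had 0 counts in all 6 libraries, which allows up to 0.113 CPM in the shallowest of them (3 counts, counting error only).

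The laminin-binding alpha subunits ITGA3, ITGA6 and ITGA7 did not pass. ITGA6 had 6.93, 7.27 and 6.06 FPKM in ZFP64-OE-labelled libraries, against 7.85, 7.22 and 7.22 FPKM in control-labelled libraries (log2 fold change -0.10, 95% interval -0.29 to 0.09, edgeR adjusted p = 0.592). ITGA7 had 4.60, 4.90 and 4.19 FPKM in ZFP64-OE-labelled libraries and 4.40, 4.47 and 4.30 FPKM in control-labelled libraries (0.09, interval -0.09 to 0.27). The opposite-strand gene METTL7B covers 0.69% of its exonic bases and held 10086 counts in all, against 5973 for ITGA7. ITGA3, at 1.10 ± 0.198 FPKM in ZFP64-OE-labelled libraries and 1.18 ± 0.150 FPKM in control-labelled libraries (SD, n = 3 each), was the lowest of the 3.

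ITGA11 was the only integrin subunit called. It encodes a collagen-binding subunit that pairs with ITGB1 and is known from fibroblasts. ITGA11 (ENSG00000137809, chromosome 15, 68296533 to 68432162 on the minus strand) had 23, 21 and 30 counts in ZFP64-OE-labelled libraries, against 53, 53 and 79 in control-labelled libraries. The groups did not overlap. It averaged 0.668 ± 0.162 CPM in ZFP64-OE-labelled libraries and 1.95 ± 0.521 CPM in control-labelled libraries (SD, n = 3 each), 2.90-fold lower (log2 fold change -1.54, standard error 0.268, edgeR adjusted p = 0.000894). Leaving out any 1 library gave log2 fold changes between -1.76 and -1.34 and a highest adjusted p of 0.00577. The level was low, at 0.0608 ± 0.0158 FPKM in ZFP64-OE-labelled libraries and 0.182 ± 0.0505 FPKM in control-labelled libraries (SD, n = 3 each).

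Fibroblast markers were low in both arms and moved with ITGA11 in 1 gene. The summed FPKM of 10 fibroblast and stellate cell markers was 0.892 to 1.11 in ZFP64-OE-labelled libraries and 1.43 to 1.53 in control-labelled libraries. Of the 4 that could be tested, COL3A1 was lower (log2 fold change -2.28, edgeR adjusted p = 3.79e-07) and PDGFRB, the most abundant, was not called (-0.13, adjusted p = 0.675). COL1A2 and POSTN were at 0 counts in all libraries, and PDGFRA and DCN had at most 4 counts in either arm. All libraries came from the same cell line, so counts of these markers need not come from fibroblasts. In bulk RNA, fewer cells that express a gene and less RNA per cell cannot be told apart. The part of these markers in the ITGA11 result was not tested.

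The more abundant collagen-binding subunits were not called. ITGA2, the main collagen receptor subunit of epithelial cells, had 12.2, 11.6 and 10.1 FPKM in ZFP64-OE-labelled libraries, against 14.2, 12.0 and 13.1 FPKM in control-labelled libraries (log2 fold change -0.18, 95% interval -0.38 to 0.02, edgeR adjusted p = 0.329). ITGA1 had 4.01, 3.87 and 3.47 FPKM in ZFP64-OE-labelled libraries and 3.81, 3.36 and 3.81 FPKM in control-labelled libraries (0.08, interval -0.10 to 0.26). Both overlapped between the arms. PELO lies within ITGA1 on the same strand, shares 2.56% of its exonic bases and had 7382 counts in all, against 14394 for ITGA1. ITGA10, a cartilage collagen receptor, averaged 2.22 ± 0.106 CPM in ZFP64-OE-labelled libraries and 2.65 ± 0.227 CPM in control-labelled libraries (SD, n = 3 each), with no overlap but no call (log2 fold change -0.26, adjusted p = 0.445). In all, 7 of the 25 tested genes had lower, non-overlapping CPM in ZFP64-OE-labelled libraries, beside 12.8% of all genes tested, and 0 had higher ones, beside 9.16%.

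Subunits known from leukocytes were measured as well. ITGAL, the alpha subunit of LFA-1, was at 2.80, 3.13 and 2.94 FPKM in ZFP64-OE-labelled libraries and at 3.07, 3.42 and 2.83 FPKM in control-labelled libraries (log2 fold change -0.04, 95% interval -0.24 to 0.16). Its beta partner ITGB2 had 3, 6 and 4 counts in ZFP64-OE-labelled libraries and 2, 7 and 3 in control-labelled libraries. Of 10 leukocyte markers, PTPRC, MS4A1 and TYROBP were at 0 in all libraries, and the list summed to 0.485 to 0.657 FPKM in ZFP64-OE-labelled libraries and 0.203 to 0.811 FPKM in control-labelled libraries, led by NKG7 and CSF1R. ITGAE, which binds E-cadherin, had 1.18, 1.28 and 1.62 FPKM in ZFP64-OE-labelled libraries, against 1.71, 1.76 and 1.72 FPKM in control-labelled libraries. The arms did not overlap, but ITGAE did not pass (log2 fold change -0.32, edgeR adjusted p = 0.132). It passed in 1 of the 6 edgeR fits that left out a library, without ZFP64-OE-labelled replicate 3 (-0.44, adjusted p = 0.0275). The highest adjusted p of those 6 fits was 0.5. HASPIN, on the opposite strand within ITGAE, overlaps 6.41% of its exonic bases and had 2901 counts in all against 2101. Whether reads of these genes were told apart there is not known.

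The remaining alpha subunits were near the floor. ITGA9, which binds tenascin and osteopontin, had 17, 16 and 22 counts in ZFP64-OE-labelled libraries and 12, 15 and 26 in control-labelled libraries, while an opposite-strand transcript over 6.46% of its exonic bases, ITGA9-AS1, had 1517 counts in all. ITGA4 had at most 3 counts in any library. ITGAD, with 5 to 12 counts in ZFP64-OE-labelled libraries and 7 to 11 in control-labelled libraries, was tested without a call. ITGAM, with 9 to 14 counts in ZFP64-OE-labelled libraries and 3 to 11 in control-labelled libraries, was not called either, and ITGAX had at most 7. Platelet markers, listed because ITGA2B is a platelet subunit, summed to 1.45 to 1.80 FPKM in ZFP64-OE-labelled libraries and 1.46 to 2.10 FPKM in control-labelled libraries, led by GP1BA and TUBB1, with GP9 at 0.

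Partners of laminin in the basement membrane also held more falls than rises, as did all genes tested. Of 28 listed components other than laminins, 17 were tested, of which 8 fell, 1 rose and 8 did not pass. In all, 52.9% were called, beside 5.81% of all genes tested (4.03% lower, 1.78% higher). This list and the lists of receptors, ligands and adaptors below were chosen with earlier results of these data known. Their shares are therefore a description and not a test. The median log2 fold change of the 17 was -0.151. COL4A5, a collagen IV chain gene, had 29 summed counts in ZFP64-OE-labelled libraries and 142 in control-labelled libraries (log2 fold change -2.47, edgeR adjusted p = 1.79e-05). Its neighbour COL4A6 had 7 summed counts in ZFP64-OE-labelled libraries and 36 in control-labelled libraries (-2.50, adjusted p = 0.00723). NTN4, a netrin that can bind laminin, had 5 summed counts in ZFP64-OE-labelled libraries, against 82 in control-labelled libraries (-4.14, adjusted p = 2.42e-05). These levels were low, with means over all libraries of 0.0727 FPKM for COL4A5, 0.0235 FPKM for COL4A6 and 0.108 FPKM for NTN4. COL18A1, the source of endostatin, averaged 4.18 ± 0.346 FPKM in ZFP64-OE-labelled libraries and 5.85 ± 0.149 FPKM in control-labelled libraries (SD, n = 3 each; -0.45, edgeR adjusted p = 0.00129). The riser was HMCN1, which encodes hemicentin (0.69, adjusted p = 0.00244). The number that fell was 4 without ZFP64-OE-labelled replicate 1 and 5 without control-labelled replicate 1 or 2, and 2 rose without ZFP64-OE-labelled replicate 3 or control-labelled replicate 1. Endothelial markers were listed because endothelial cells are another source of basement membrane, although all libraries came from the same tumour cell line. Of the 10 markers, PECAM1 fell (log2 fold change -1.49, edgeR adjusted p = 5.46e-07), and STAB2 (-0.38) and CDH5 (-0.23, adjusted p = 0.806) did not pass. KDR, TEK and ERG were at 0 in all libraries. The list summed to 0.628 to 0.869 FPKM in ZFP64-OE-labelled libraries and 1.74 to 1.91 FPKM in control-labelled libraries, of which PECAM1 alone held 0.445 to 0.702 FPKM in ZFP64-OE-labelled libraries and 1.58 to 1.71 FPKM in control-labelled libraries. The part of these markers in the basement membrane results was not tested.

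**Figure D5:**
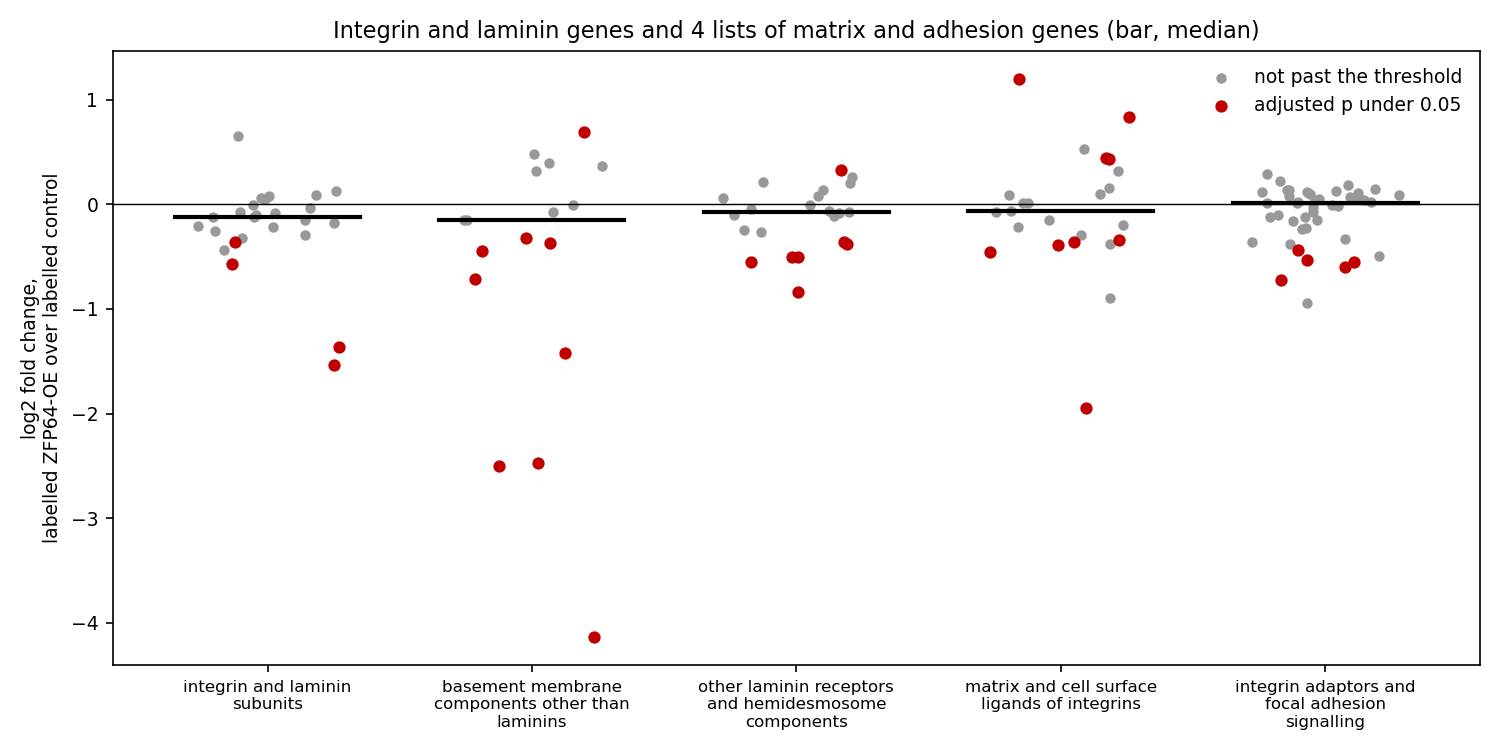
Log2 fold change (y axis, labelled ZFP64-OE over labelled control) of each tested gene in the integrin and laminin families and in 4 lists of matrix and adhesion genes, with the median as a bar. Called genes, in red, lie mostly below 0 in all of the lists except the ligands, where 4 rose and 5 fell.

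Laminin is also bound by receptors that are not integrins, and hemidesmosomes hold further components. Of 27 such genes 22 were tested, of which 6 fell, 1 rose and 15 did not pass. The share called was 31.8%, beside 5.81% of all genes tested (4.03% lower, 1.78% higher), and the median log2 fold change was -0.077. SDC1, a heparan sulphate proteoglycan of epithelial cells, averaged 19.7 ± 1.01 FPKM in ZFP64-OE-labelled libraries and 36.1 ± 2.60 FPKM in control-labelled libraries (SD, n = 3 each; log2 fold change -0.84, edgeR adjusted p = 8.88e-07). SDC2, a related syndecan, fell too (-0.50, edgeR adjusted p = 0.00043). LGALS3, a galectin, also fell (-0.55, adjusted p = 0.0123). The number that fell was 4 without ZFP64-OE-labelled replicate 1 or control-labelled replicate 2, and the riser, DST, the hemidesmosomal dystonin (0.33, adjusted p = 0.0482), was lost without 4 of the 6 libraries in turn (highest adjusted p = 0.284), while 2 rose without ZFP64-OE-labelled replicate 3 or control-labelled replicate 1.

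Ligands of integrins other than laminins moved in both directions. Of 34 listed, 24 were tested, of which 4 rose, 5 fell and 15 did not pass. The share called was 37.5%, beside 5.81% of all genes tested, and the median log2 fold change was -0.067. FGB, a fibrinogen chain, and SPP1, which encodes osteopontin, rose by log2 fold changes of 0.83 and 1.20 (edgeR adjusted p = 4.17e-06 and 0.00209), and ICAM1, the ligand of LFA-1, by 0.43 (adjusted p = 0.0052, but 0.0638 without ZFP64-OE-labelled replicate 2). FBN1, a microfibril protein with an RGD motif, had 44 summed counts in ZFP64-OE-labelled libraries and 149 in control-labelled libraries (-1.95, adjusted p = 7.27e-05). The number that fell was 2 without ZFP64-OE-labelled replicate 1 or 3 or control-labelled replicate 1 or 2 and 3 without either other library, and the number that rose was 2 without ZFP64-OE-labelled replicate 2.

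Inside the cell, adaptors that couple integrins to actin and signalling mostly did not pass. Of 50 listed genes 44 were tested, of which 5 fell, 0 rose and 39 did not pass. The share called was 11.4%, all lower, beside 5.81% of all genes tested (4.03% lower). The median log2 fold change was 0.009. NEDD9, a scaffold of focal adhesion kinase signalling, averaged 9.72 ± 0.536 FPKM in ZFP64-OE-labelled libraries and 16.4 ± 1.22 FPKM in control-labelled libraries (SD, n = 3 each; log2 fold change -0.72, edgeR adjusted p = 2.25e-05). FLNA, an actin crosslinker that binds beta subunit tails, fell too (-0.55, edgeR adjusted p = 0.00173). CAV1, the caveolar coat protein (-0.53, adjusted p = 0.00564), and TLN2, a talin that activates integrins (-0.44, adjusted p = 0.00934), fell as well. The calls of these 4 genes were kept without any 1 library.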

How the data were processed

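Per the labels' protocols, total RNA was isolated using Trizol and prepared with the TruSeq RNA kit of Illumina. The submitters' processing notes name HISAT2 and GRCh38. How reads were counted, with which annotation and strand setting, is not given in the sources used here. Whether reads of overlapping genes on opposite strands were told apart is therefore not known. The deposited counts are raw whole numbers per Ensembl gene. The deposited FPKM values are the authors' own, divided by gene length and library total, without TMM scaling. Columns were assigned by the codes in the sample titles.

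Genes with low counts were removed with filterByExpr (minimum count 10, scaled to library size, and total of 15), and the rest were tested with edgeR 4.0.16 (R 4.3.3), using TMM scaling (factors 0.963 to 1.05), robust quasi-likelihood F-tests on the group alone and Benjamini-Hochberg adjustment over all 19173 genes, with a threshold of 0.05. Standard errors were derived from the fold change and its F statistic, and 95% intervals use the moderated degrees of freedom. The fits were tested on simulated data. Alternatives were RLE scaling, DESeq2 1.42.0, no low-count filter, a replicate block, leaving out each library, and limma 3.58.1 on log2(FPKM + 0.1) and log2(FPKM + 1). Gene positions and overlaps came from GENCODE v29 on GRCh38, which may not be the authors' annotation. Members, gene lists and tests were chosen with earlier results of these data known. Genes named are all members, the targeted gene, the up to 4 smallest p-values past the threshold in each pathway list, and the 2 most abundant genes of each cell type list. Others were chosen after their values were seen (TTR, COL4A6, DST, CDH5, and markers at or near 0). Some genes that this rule covers are not reported here.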

Additional observations from a re-analysis of the deposited data

How the results depend on the processing

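The 4 called genes kept their direction under every alternative run. LAMB3 passed under all of them, and LAMA3 and ITGA11 under all except limma on log2 FPKM. With 0.1 added to FPKM, limma called 1 of the integrin and laminin genes and 470 genes in all, and with 1 added it called 1 and 439. Those fits left LAMA3 at adjusted p = 0.0758 and 0.0757 (log2 fold changes -0.56 and -0.32, beside -0.57 by edgeR), ITGA11 at 0.0625 and 0.0914 (log2 fold changes -0.80 and -0.16, since the added value is large beside its level) and LAMB1 at 0.0576 and 0.0623 (-0.39 and -0.36, beside -0.36 by edgeR). They called 3 and 3 of the adaptor genes, 4 and 4 of the basement membrane genes, 4 and 3 of the ligands and 4 and 4 of the laminin receptors. The labels do not say that the replicate numbers pair the libraries. Deviations from the group means correlated at 0.0183, 0.0198 and 0.0968 for numbers 1, 2 and 3. Libraries of unlike numbers correlated at -0.1875 to 0.15. With 3 libraries in each arm, these values cannot decide whether the libraries were paired. A fit with the replicate block called 2096 genes, 8 of the adaptors and 6 integrin and laminin genes, adding ITGAE (adjusted p = 0.0394) and LAMA5 (0.0042). Leaving out 1 library gave 587 to 1535 genes, 3 to 4 integrin and laminin genes lower, 4 to 6 adaptors, 5 to 9 basement membrane genes, 5 to 6 ligands and 4 to 8 laminin receptors. RLE scaling, DESeq2 and no filter left 4, 4 and 5 integrin and laminin genes lower, and the share of all calls that were lower was 64.7%, 62.5% and 65.7% beside 69.3%.

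LAMB3 and ITGA11 rest on 21 to 84 counts a library, which limits the precision of their folds. No member was called higher by edgeR, DESeq2 or limma, and 6 of the 25 had an unadjusted p under 0.05 by edgeR, all lower, beside 19.1% of all genes tested in either direction.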
